A study of Mus musculus with 12 samples.

Results

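The 34 genes described here encode proteins of the sarcomere and the Z-disc that atrial and ventricular heart muscle share. They were chosen by gene symbol. All 34 were found among the 17536 genes of the deposited table and all 34 passed the filter on low counts, as did 13489 genes in all. The RNA came from hearts of 10-week-old mice of the outbred ICR stock. The design text of the series states its purpose as exploring what FMT does in hearts damaged by busulfan.

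The 12 libraries fall into 4 groups of 3. The AOS-FMT group received busulfan and an FMT labelled with AOS at 10 mg/kg. The control-FMT group received busulfan and a control FMT. The busulfan group received busulfan, an alkylating chemotherapy drug, at 20 mg/kg, and the control group received none of these. AOS and FMT are written as in the labels, which name no dose of busulfan in the FMT groups and do not say whether the libraries of a group came from separate animals. A p-value here measures only how these samples spread, and some of that spread may be technical.

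The sarcomere is the contractile unit of striated muscle, in which myosin thick filaments pull on actin thin filaments. Titin links the thick filament to the Z-disc and the M-band, while troponin and tropomyosin on the thin filament make contraction depend on calcium. The Z-disc anchors thin filaments of neighbouring sarcomeres and carries proteins that sense stretch and stress, and mutations in many of these genes cause inherited cardiomyopathy.

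Library totals ran from 11333647 to 14335702 estimated counts. Levels between libraries are in CPM, the share of a library's counts on a common scale, after TMM scaling, a correction for library composition. Heart muscle RNA was abundant in every library: the 20 listed cardiomyocyte markers outside the sarcomere summed to 37800 to 56200 CPM in AOS-FMT hearts, 52960 to 57340 CPM in control-FMT hearts, 59110 to 64960 CPM in busulfan hearts and 51360 to 69550 CPM in control hearts. Listed skeletal muscle markers summed to at most 60.8 CPM. Atrial transcripts varied far more, and an atrial score was made by averaging the log2 CPM of the atrial genes Myl7, Myl4, Bmp10 and Sln. The score was 6.57, 10.4 and 9.49 in the AOS-FMT libraries, 3.48, 0.816 and 6.26 in the control-FMT libraries, 0.174, 3.94 and 7.29 in the busulfan libraries and 6.04, 10.3 and 9.88 in the control libraries. The 4 highest scores belonged to AOS-FMT replicates 2 and 3 and control replicates 2 and 3, so comparisons between these groups and the others also compare libraries that differ in atrial content. Here, as in any bulk tissue, fewer cells of a type and less RNA per cell cannot be told apart.

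Levels between genes are given in the authors' deposited TPM, which are set per transcript length. The thin filament genes stood highest. Across the 12 libraries the median TPM was 16700 for Tpm1, which encodes alpha-tropomyosin. Tnnt2, cardiac troponin T, had a median of 13600 TPM and Tnni3, cardiac troponin I, of 13100 TPM. Tnnc1, the calcium-binding troponin C of slow and cardiac muscle, stood at a median of 6550 TPM, the fourth highest of the 34. Cryab, a small heat shock protein that binds desmin and titin, followed at 3470 TPM, then Csrp3, the muscle LIM protein of the Z-disc, at 2290 TPM and Tcap, the titin cap protein, at 1850 TPM. The lowest members were Myom3, an M-band myomesin, at a median of 1.27 TPM, Pdlim3, an actinin-associated LIM protein, at 15.9 TPM, and Obsl1, a cytoskeletal linker protein, at 29.3 TPM. Even so, the smallest count of any member in any library was 32, for Myom3, and the next smallest was 118, for Pdlim3.

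As a group, the members made up 6.09%, 5.18% and 5.25% of the counts in the AOS-FMT libraries and 6.06%, 6.17% and 6.18% in the control-FMT libraries. They made up 6.58%, 6.76% and 6.43% in the busulfan libraries and 6.94%, 5.61% and 5.54% in the control libraries. Busulfan hearts thus lay above both FMT groups without overlap, while the control libraries reached above and below that range. On the log2 scale, each gene's levels were centred on their mean over the 12 libraries, and the median over the 34 genes was then taken in each library. That median was 0.01, -0.29 and -0.14 in AOS-FMT hearts, 0, -0.03 and -0.01 in control-FMT hearts, 0.13, 0.16 and 0.16 in busulfan hearts and 0.15, 0.07 and -0.14 in control hearts. The lowest library was AOS-FMT replicate 2, which also had the highest atrial score, 10.4. Control replicate 2, with a score of 10.3, had a median of 0.07.

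**Figure D1:**
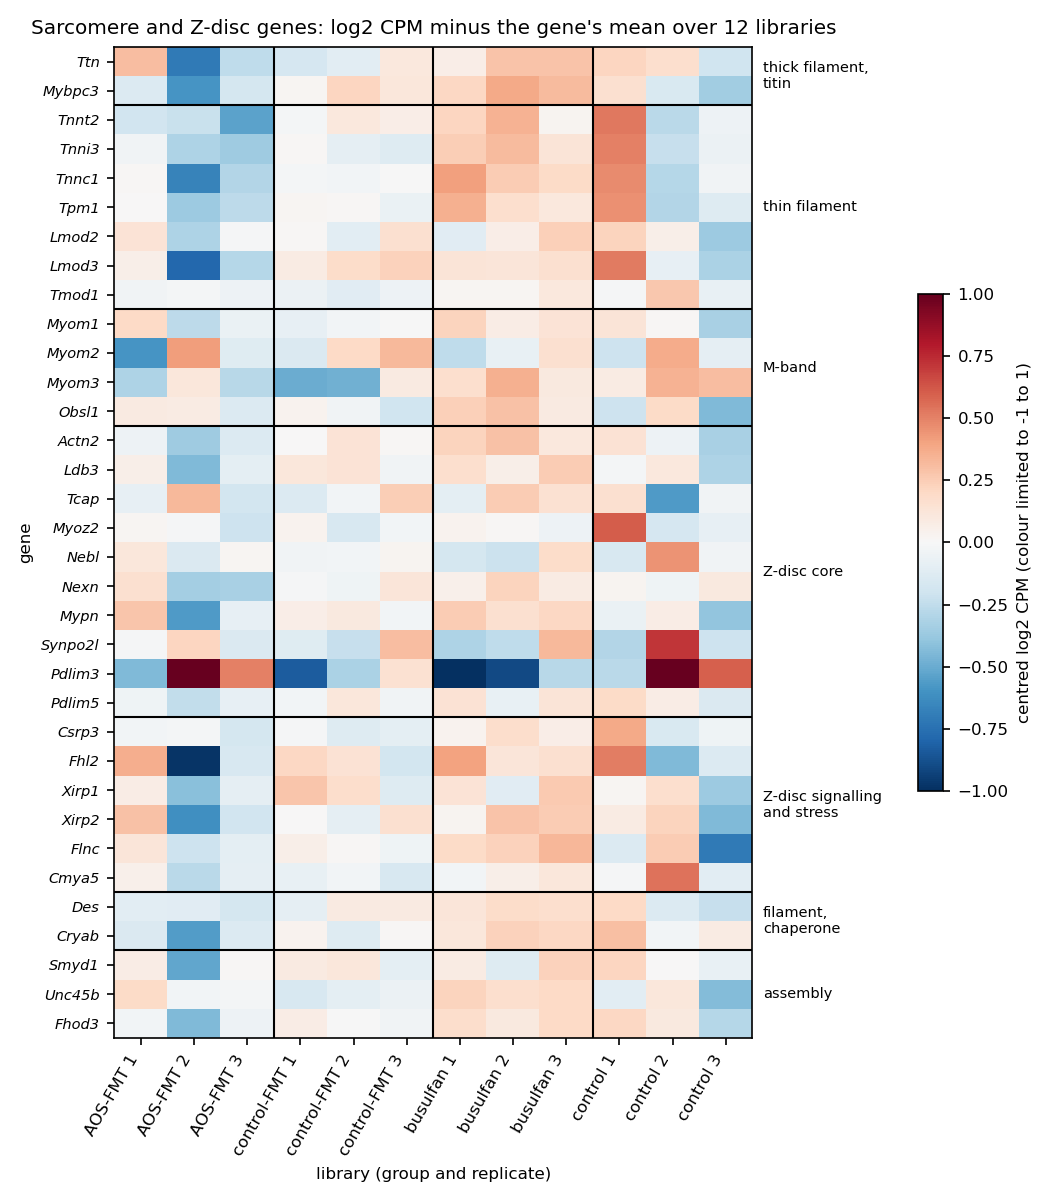
Log2 CPM of the 34 members (rows, by role) in the 12 libraries (columns, by group), each gene centred on its mean over all libraries. AOS-FMT replicate 2 is the lowest column, with a median of -0.29, the 3 busulfan libraries have medians of 0.13 to 0.16, and Pdlim3 stands apart from the other rows.

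The members differed in how much they varied among libraries. Pdlim3 had the widest range, with its highest CPM 5.84 times its lowest, followed by Fhl2, a LIM protein that binds titin, at 2.81 times. Tmod1, which caps the pointed ends of thin filaments, varied least, at 1.3 times. The within-group SD of log2 CPM was 0.71 for Pdlim3, 0.44 for Fhl2 and 0.10 for Tmod1. Its median over the members was 0.22, against 0.21 over all genes tested. Over genes at or above the lowest member level, Myom3 and Pdlim3 set aside, it was 0.18.

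Sequence just upstream of the start site is printed for the 7 members that differed between AOS-FMT and busulfan hearts at an unadjusted p under 0.05 and had an entry in the promoter table, so that the letters can be read beside the values that follow. The table, from RefSeq on GRCm38.p6, held 27 of the 34 members. Each line gives the 150 bases before the annotated start, 5′ to 3′ on the gene's strand, and capitals mark a match to the MCAT box (CATTCC, on either strand) or the MEF2 site.
Mybpc3 (chr2:91117994-91118143, plus strand): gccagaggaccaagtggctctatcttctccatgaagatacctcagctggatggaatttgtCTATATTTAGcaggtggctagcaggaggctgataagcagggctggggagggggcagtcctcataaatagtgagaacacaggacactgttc
Tnnt2 (chr1:135836184-135836333, plus strand): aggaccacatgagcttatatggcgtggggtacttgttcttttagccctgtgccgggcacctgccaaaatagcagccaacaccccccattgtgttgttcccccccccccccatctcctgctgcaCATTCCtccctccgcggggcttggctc
Tnni3 (chr7:4522529-4522678, minus strand): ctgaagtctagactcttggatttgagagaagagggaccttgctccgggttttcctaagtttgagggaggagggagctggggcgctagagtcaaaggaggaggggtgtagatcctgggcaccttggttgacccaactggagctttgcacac
Tnnc1 (chr14:31208162-31208311, plus strand): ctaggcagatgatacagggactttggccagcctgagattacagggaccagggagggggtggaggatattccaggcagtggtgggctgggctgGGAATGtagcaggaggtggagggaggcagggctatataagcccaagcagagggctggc
Tpm1 (chr9:67049214-67049363, minus strand): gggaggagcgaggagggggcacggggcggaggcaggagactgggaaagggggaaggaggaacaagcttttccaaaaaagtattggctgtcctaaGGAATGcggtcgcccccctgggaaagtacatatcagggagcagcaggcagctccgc
Actn2 (chr13:12340733-12340882, minus strand): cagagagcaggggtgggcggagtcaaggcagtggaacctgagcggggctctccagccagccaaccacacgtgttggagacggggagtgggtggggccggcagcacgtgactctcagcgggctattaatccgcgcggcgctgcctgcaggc
Pdlim3 (chr8:45885337-45885486, plus strand): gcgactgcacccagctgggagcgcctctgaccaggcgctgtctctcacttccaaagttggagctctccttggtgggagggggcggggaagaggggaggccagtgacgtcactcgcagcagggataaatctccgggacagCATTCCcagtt
One MEF2 match stood 90 bases before the start of Mybpc3. MCAT matches began 27, 58 and 56 bases before the starts of Tnnt2, Tnnc1 and Tpm1, and 11 bases before that of Pdlim3. No match to the motifs searched lay in the stretches shown for Tnni3 and Actn2. In the 250 bases before the start, the MCAT box was found in 7 of the 27 members (25.9%), against 12.6% of 27025 promoters in the table. The MEF2 site was found in 7 (25.9%), against 3.01% of all promoters, and the CArG box in 3 (11.1%), against 1.4%. The TATA box (TATAAA) was found in 3 (11.1%), against 13% of all promoters. Motifs were searched on both strands, and a match is a description of the letters, not evidence of binding.

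AOS-FMT hearts were set against busulfan hearts to ask how the 34 genes stood after this FMT. The troponin genes Tnnt2, Tnni3 and Tnnc1, the tropomyosin gene Tpm1 and Mybpc3, Actn2, Cryab and Fhod3 were lower in AOS-FMT hearts by 20.1% to 33.7% in the fitted values, and Pdlim3 was higher. No member passed the test, however. By edgeR's quasi-likelihood test with Benjamini-Hochberg adjustment over all genes, 0 of the 34 were called at an adjusted p under 0.05, and 6 of all 13489 genes were (0.0445%). At an unadjusted p under 0.05 there were 9 members, 8 of them lower and 1 higher, against 13.6% of all genes in either direction and 5.85% in the lower direction. On leaving out 1 library at a time that count ran between 3 (without AOS-FMT replicate 2, or without busulfan replicate 2) and 16 (without AOS-FMT replicate 1), with 4 without busulfan replicate 1. It was 2 with the log2 atrial score and 3 with the linear atrial level as a covariate. The share of all genes under that threshold was not taken in these fits, so the counts are not particular to the members. Calls over all genes moved too, from 0 without busulfan replicate 1 to 20 without AOS-FMT replicate 1. DESeq2 called 2 members among 131 genes in all, Mybpc3 with an adjusted p of 0.0198 and Cryab with 0.0485, and limma-voom called 0 members among 4 genes. Fold changes are log2 values, AOS-FMT over busulfan, with their standard errors. Of the 34, 30 were below 0 and the median was -0.28, while the median of all genes was 0 with 49.3% below 0. In 13 members every AOS-FMT library was below every busulfan library, against 10.9% of all genes tested.

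Mybpc3 encodes cardiac myosin-binding protein C, which regulates myosin heads on the thick filament. Mybpc3 had 3463, 2534 and 3367 CPM in AOS-FMT hearts, 3869, 4424 and 4124 in control-FMT hearts, 4405, 4963 and 4748 in busulfan hearts and 4250, 3427 and 2988 in control hearts. The highest AOS-FMT library was below the lowest busulfan library, with a log2 fold change of -0.59 ± 0.17 (edgeR adjusted p = 0.279). Ttn encodes titin, the giant spring of the sarcomere. Levels of Ttn were 4940, 2445 and 3346 CPM in the AOS-FMT libraries, 3556, 3714 and 4292 CPM in control-FMT, 4174, 4866 and 4871 CPM in busulfan and 4645, 4480 and 3481 CPM in control. AOS-FMT replicate 1 was the highest of all 12 and replicate 2 the lowest, and the groups overlapped, with a log2 fold change of -0.37 ± 0.22 (edgeR adjusted p = 0.436).

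All 7 thin filament members were below 0, with a median of -0.44, and 6 of them did not overlap between the groups. In AOS-FMT hearts Tnnt2 was at 8571, 8357 and 6743 CPM, beside 9658, 10500 and 10260 CPM in control-FMT hearts, 11320, 12410 and 9987 CPM in busulfan hearts and 14060, 8116 and 9453 CPM in control hearts. The AOS-FMT libraries of this troponin T gene lay below the busulfan and control-FMT libraries, and the log2 fold change against busulfan was -0.51 ± 0.19 (edgeR adjusted p = 0.306). The libraries gave Tnni3 6460, 5317 and 5147 CPM in the AOS-FMT group, 6667, 6219 and 6030 CPM in the control-FMT group, 7816, 8220 and 7223 CPM in the busulfan group and 9348, 5633 and 6350 CPM in the control group. For this troponin I gene both FMT groups lay below busulfan hearts, while control replicate 1 was the highest library. Its log2 fold change, AOS-FMT over busulfan, was -0.46 ± 0.18 (edgeR adjusted p = 0.313). Tnnc1 had 2241, 1399 and 1813 CPM in AOS-FMT hearts, 2196, 2187 and 2217 in control-FMT hearts, 2959, 2649 and 2544 in busulfan hearts and 3082, 1824 and 2169 in control hearts. The gap between AOS-FMT and busulfan libraries was clear of overlap here too, at -0.58 ± 0.20 (edgeR adjusted p = 0.296). Tpm1 averaged 10510 ± 1422 CPM in AOS-FMT hearts and 14000 ± 1298 CPM in busulfan hearts (SD, n = 3 each), a log2 fold change of -0.41 ± 0.19. Lmod2 encodes leiomodin 2, which lengthens thin filaments at the pointed end. Levels of Lmod2 were 655, 481 and 592 CPM in the AOS-FMT libraries, 599, 555 and 664 CPM in control-FMT, 552, 623 and 703 CPM in busulfan and 696, 621 and 463 CPM in control. These ranges overlapped in every pair of groups, and the log2 fold change was -0.12 ± 0.17. Lmod3 and Tmod1 had log2 fold changes of -0.44 ± 0.21 and -0.08 ± 0.11.

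The 4 members of the M-band, the middle of the sarcomere, had fold changes from -0.35 to 0.01. Myom1 encodes myomesin 1, the main crosslinker of thick filaments there. In AOS-FMT hearts Myom1 was at 1169, 847 and 970.2 CPM, beside 961, 999.4 and 1013 CPM in control-FMT hearts, 1188, 1070 and 1116 CPM in busulfan hearts and 1115, 1026 and 814 CPM in control hearts. AOS-FMT replicate 1 lay inside the busulfan range, and the log2 fold change was -0.18 ± 0.15 (edgeR adjusted p = 0.587). Myom1 shares exon bases with Myl12a on the opposite strand, which was counted at 714.5 to 1045 CPM with a log2 fold change of -0.24. How reads from shared bases were counted is not given in the sources used here. Myom2, M-protein, stood at 0.01 ± 0.24, but at -0.41 ± 0.25 with the log2 atrial score as a covariate, -0.53 ± 0.18 with the linear level and -0.53 ± 0.20 without the 4 libraries of highest atrial score, none of them called. Myom3 stood at -0.35 ± 0.23 and Obsl1 at -0.19 ± 0.15.

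Of the 10 genes of the Z-disc core, 7 were below 0, with a median of -0.13. Actn2 encodes alpha-actinin 2, which crosslinks thin filaments in the Z-disc. The libraries gave Actn2 2337, 1899 and 2209 CPM in the AOS-FMT group, 2430, 2664 and 2449 CPM in the control-FMT group, 2834, 2964 and 2605 CPM in the busulfan group and 2676, 2338 and 1936 CPM in the control group. The groups did not overlap, and the log2 fold change was -0.38 ± 0.15 (edgeR adjusted p = 0.306). Tcap encodes telethonin, which joins titin ends at the Z-disc. Tcap had 965, 1276 and 896 CPM in AOS-FMT hearts, 925, 999.7 and 1209 in control-FMT hearts, 952, 1214 and 1133 in busulfan hearts and 1137, 688 and 994 in control hearts. The ranges overlapped, with a log2 fold change of -0.07 ± 0.20. Pdlim3 went the other way. Levels of Pdlim3 were 15.8, 59.96 and 30.6 CPM in the AOS-FMT libraries, 12.1, 17.3 and 23.9 CPM in control-FMT, 10.3, 11.5 and 17.8 CPM in busulfan and 17.9, 56.1 and 32.5 CPM in control. AOS-FMT replicate 1 lay inside the busulfan range and replicates 2 and 3 above it, and the log2 fold change was 1.43 ± 0.55 (edgeR adjusted p = 0.319). Nebl, nebulette, a thin filament binding protein of the Z-disc, had a log2 fold change of 0.06 ± 0.16, and Synpo2l, an actin-associated Z-disc protein, of 0.08 ± 0.27. In AOS-FMT hearts Nebl was at 349, 292 and 327 CPM, beside 316, 317 and 329 CPM in control-FMT hearts, 286, 278 and 366 CPM in busulfan hearts and 289.9, 442 and 316 CPM in control hearts. The libraries gave Synpo2l 166, 195 and 152 CPM in the AOS-FMT group, 154, 143 and 207 CPM in the control-FMT group, 135, 140.1 and 209.5 CPM in the busulfan group and 137, 275 and 145 CPM in the control group. The groups overlapped for both genes, and control replicate 2 was the highest library of each. The remaining core members were Ldb3, a PDZ-LIM protein that binds alpha-actinin, at -0.31 ± 0.15, Mypn, myopalladin, at -0.29 ± 0.18, Nexn, nexilin, at -0.27 ± 0.14, Pdlim5 at -0.19 ± 0.13 and Myoz2, which tethers calcineurin, at -0.06 ± 0.18.

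The 6 members of signalling and stress sensing all had fold changes below 0, with a median of -0.27. Flnc encodes filamin C, an actin crosslinker. Flnc had 394, 315 and 339 CPM in AOS-FMT hearts, 379, 366 and 353 in control-FMT hearts, 416, 426 and 458 in busulfan hearts and 329.7, 432 and 222 in control hearts. AOS-FMT and busulfan hearts did not overlap, at -0.31 ± 0.19 (edgeR adjusted p = 0.448). Xirp2, an actin-binding repeat protein of cell junctions in heart muscle, overlapped between the groups. Levels of Xirp2 were 642, 344 and 458 CPM in the AOS-FMT libraries, 527, 492 and 587 CPM in control-FMT, 536, 639 and 626 CPM in busulfan and 556, 612 and 385 CPM in control. Its highest library was AOS-FMT replicate 1 and its lowest AOS-FMT replicate 2, and the log2 fold change was -0.32 ± 0.21. In AOS-FMT hearts Csrp3 was at 1109, 1114 and 1002 CPM, beside 1122, 1034 and 1060 CPM in control-FMT hearts, 1162, 1277 and 1186 CPM in busulfan hearts and 1468, 1020 and 1099 CPM in control hearts. The fold change of this LIM protein gene was -0.17 ± 0.14, without overlap between AOS-FMT and busulfan libraries. Fhl2 stood at -0.39 ± 0.30, Xirp1 at -0.23 ± 0.18 and Cmya5, a protein that anchors signalling enzymes near the Z-disc, at -0.14 ± 0.16.

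Des encodes desmin, the intermediate filament that ties Z-discs together. The libraries gave Des 2894, 2881 and 2766 CPM in the AOS-FMT group, 2924, 3325 and 3310 CPM in the control-FMT group, 3385, 3538 and 3508 CPM in the busulfan group and 3572, 2839 and 2655 CPM in the control group. The AOS-FMT libraries of Des lay close together and below all busulfan libraries, at -0.29 ± 0.14 (edgeR adjusted p = 0.375). Cryab had 1532, 1150 and 1537 CPM in AOS-FMT hearts, 1734, 1547 and 1703 in control-FMT hearts, 1827, 1986 and 1951 in busulfan hearts and 2077, 1659 and 1791 in control hearts. For Cryab the AOS-FMT libraries lay below those of each other group, and the log2 fold change against busulfan was -0.45 ± 0.14 (edgeR adjusted p = 0.296). Cryab shares exon bases with Hspb2 on the opposite strand, and strand use in counting is not given in the sources used here. Hspb2 itself was counted at 61 to 81.3 CPM, with a log2 fold change of -0.02. In all, 11 members have an exon overlapped by another gene, 4 of them by a gene that was tested. The assembly factors had values of -0.32 ± 0.14 for Fhod3, a formin that builds thin filaments, -0.15 ± 0.13 for Unc45b, a myosin chaperone, and -0.19 ± 0.16 for Smyd1, a methyltransferase needed for sarcomere assembly. Levels of Smyd1 were 594, 395 and 571 CPM in the AOS-FMT libraries, 601, 610.1 and 527 CPM in control-FMT, 598, 517 and 662 CPM in busulfan and 655, 568 and 536 CPM in control. AOS-FMT replicate 2 was the lowest library for this gene, while replicates 1 and 3 lay within the busulfan range.

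**Figure D2:**
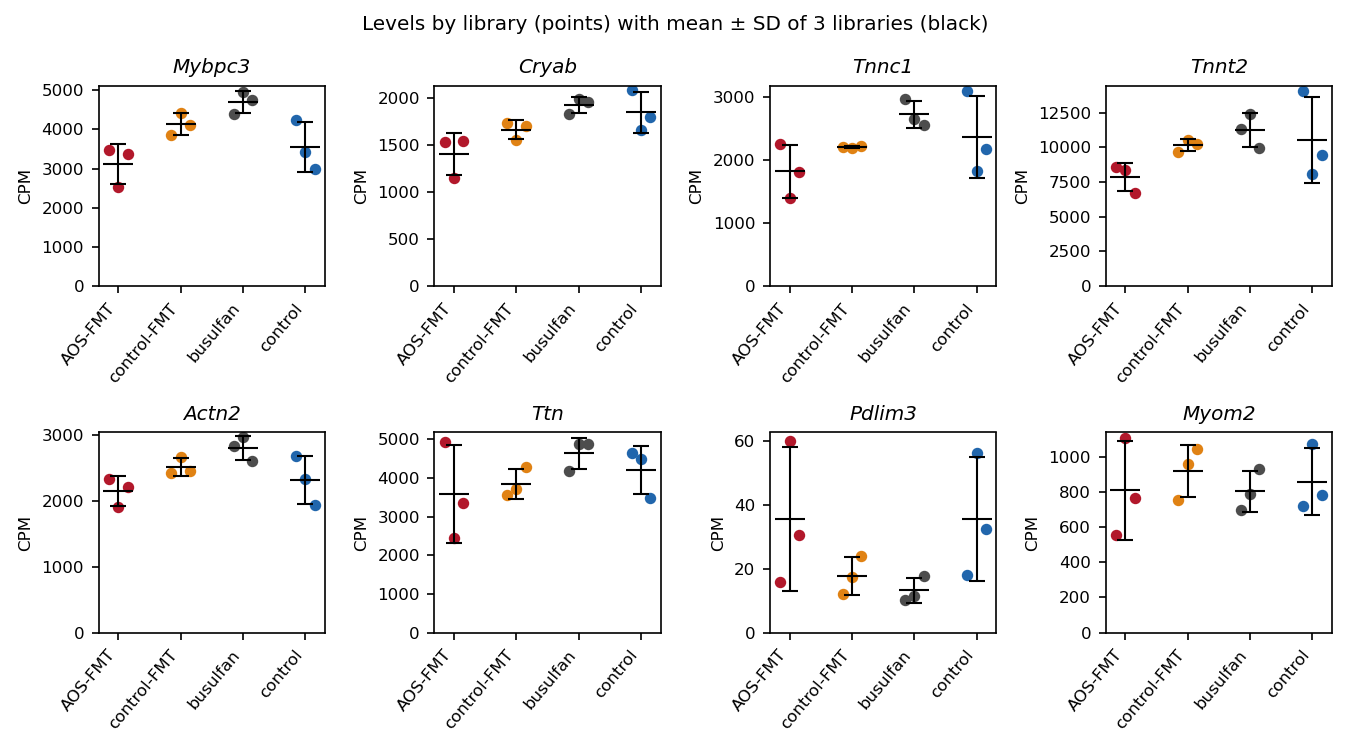
CPM of 8 members in each library, by group, with the mean and SD (n = 3). For Mybpc3, Cryab, Tnnc1, Tnnt2 and Actn2 every AOS-FMT point is below every busulfan point, whereas Ttn, Pdlim3 and Myom2 overlap.

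Summed levels of several other marker lists differed between these groups, although edgeR called 0 genes of any of them. The 14 listed atrial markers summed to 2078 to 27790 CPM in AOS-FMT hearts and 401 to 3440 CPM in busulfan hearts, with all 13 that were tested above 0 and none at 0 counts throughout. The 10 ventricular markers summed to 11250 to 22080 CPM in AOS-FMT hearts and 23920 to 26730 CPM in busulfan hearts, with 9 of 10 below 0. The 15 fibroblast markers summed to 5812 to 10850 CPM in AOS-FMT hearts and 4240 to 5682 CPM in busulfan hearts, with all 15 above 0. The 12 macrophage markers summed to 572 to 827 CPM in AOS-FMT hearts and 421 to 558 CPM in busulfan hearts, again all above 0, and the 13 liver markers to 136 to 834 CPM in AOS-FMT hearts and 65.0 to 94.2 CPM in busulfan hearts. The 14 endothelial markers had a median log2 fold change of 0.11, with 6 below 0, and the 10 smooth muscle and pericyte markers of 0.07, with 3 below 0. Without AOS-FMT replicate 2, the library with the most atrial and fibroblast counts, the members' median was -0.18. Without the 4 libraries of highest atrial score, an alternative added after the data were seen that leaves 1 AOS-FMT library, which is assumed to vary like the other groups, the median was -0.08 and 21 of 34 were below 0. In that reduced set Mybpc3 was at -0.44 ± 0.12, Tnnt2 at -0.38 ± 0.14, Cryab at -0.32 ± 0.11, Tnnc1 at -0.27 ± 0.12, Tnni3 at -0.26 ± 0.12, Actn2 at -0.25 ± 0.12, Tpm1 at -0.20 ± 0.12 and Ttn at 0.10 ± 0.14 on the log2 scale, with no member called. With the log2 atrial score as a covariate the median was -0.18. In that fit Mybpc3 stood at -0.46 ± 0.20, Cryab at -0.40 ± 0.18, Tnnc1 at -0.28 ± 0.21, Tnnt2 at -0.26 ± 0.22, Tnni3 and Actn2 at -0.21 ± 0.20 and -0.21 ± 0.17, and Tpm1 at -0.10 ± 0.19. With the linear atrial level the same 7 genes stood at -0.33 ± 0.13 for Mybpc3, -0.27 ± 0.19 for Tnnt2, -0.24 ± 0.13 for Cryab, -0.18 ± 0.13 for Actn2, -0.17 ± 0.12 for Tnnc1, -0.15 ± 0.14 for Tnni3 and -0.07 ± 0.13 for Tpm1. Mybpc3 and Cryab kept an unadjusted p under 0.05 with the log2 score, and the 3 troponin genes, Tpm1 and Actn2 did not. With the linear level only Mybpc3 of these 7 genes kept it (edgeR unadjusted p = 0.0253), and Cryab did not (0.0746). In counts scaled by library total alone the median was -0.15, when the median of all genes was 0.14. The part of these other cell types in the members' differences was not tested beyond these values. The 17 shorter members had a median of -0.29 and the 17 longer ones of -0.23.

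**Figure D3:**
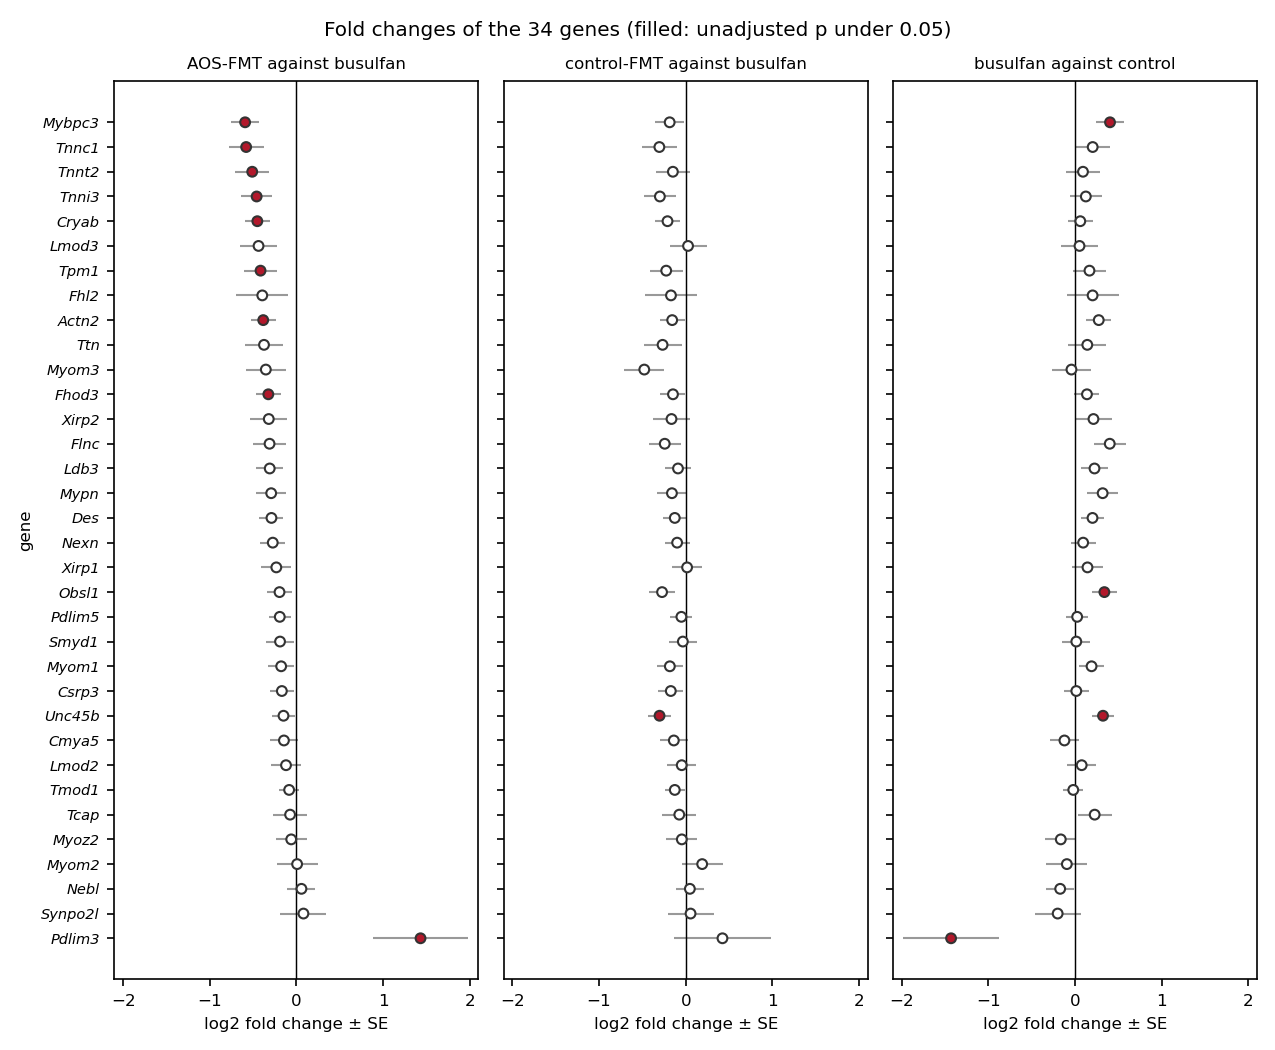
Log2 fold change of each member with its standard error in 3 comparisons, AOS-FMT against busulfan, control-FMT against busulfan and busulfan against control, where filled points have an unadjusted p under 0.05. In the first comparison 30 of 34 points lie below 0, in the second 28, and in the third 8.

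AOS-FMT hearts were also set against control-FMT hearts, the comparison between the FMT types. Mybpc3, Lmod3 and Tnnt2 had the smallest p-values among genes lower in AOS-FMT hearts, and Pdlim3 was higher in the fit without covariates. None passed the test: edgeR's quasi-likelihood test called 0 of 34 members at an adjusted p under 0.05 and 4 of all genes (0.0297%), while DESeq2 and limma-voom called 0 members. At an unadjusted p under 0.05 there were 2 members, against 6.23% of all genes. The median was -0.15, with 24 of 34 below 0. In 7 members, Mybpc3, Lmod3, Tnnt2, Cryab, Actn2, Des and Pdlim5, every AOS-FMT library lay below every control-FMT library, against 7.29% of all genes. In 2 members, Unc45b and Tmod1, every AOS-FMT library lay above every control-FMT library, as in 879 of all 13489 genes. The log2 fold change, AOS-FMT over control-FMT, was -0.41 ± 0.16 for Mybpc3 (edgeR adjusted p = 0.79) and -0.36 ± 0.19 for Tnnt2. Lmod3, leiomodin 3, is another factor of the pointed ends of thin filaments. In AOS-FMT hearts Lmod3 was at 168, 93.5 and 132 CPM, beside 171, 183 and 189 CPM in control-FMT hearts, 176, 176 and 181 CPM in busulfan hearts and 231, 153 and 129.9 CPM in control hearts. Here 2 of the 3 AOS-FMT libraries were below all control-FMT libraries by a wide margin and replicate 1 by a small one, for a log2 fold change of -0.46 ± 0.21. Pdlim3 stood at 1.01 ± 0.54, Unc45b at 0.15 ± 0.13 and Myom3 at 0.13 ± 0.23, the 3 smallest p-values among genes above 0. Pdlim3 changed direction under each atrial setting, to -0.14 ± 0.53 with the log2 score, -0.29 ± 0.26 with the linear level and -0.16 ± 0.41 without the 4 most atrial libraries. Myom2 stood at -0.64 ± 0.26, -0.71 ± 0.18 and -0.73 ± 0.20 in those same settings, without being called. The median of the members was -0.05 without AOS-FMT replicate 2. It was 0.03 with the 4 libraries of highest atrial score left out, which leaves only replicate 1 of AOS-FMT.

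Control-FMT hearts were set against busulfan hearts in the same fit, using the same 3 busulfan libraries as above. Most members lay slightly lower in control-FMT hearts: 28 of 34 were below 0, with a median of -0.15, against a median of 0 over all genes and 50.1% below 0. The edgeR test called 0 members and 0 genes in all (0%), DESeq2 and limma-voom called 0 members, and 1 member against 2.65% of all genes had an unadjusted p under 0.05. That last count was 9 when only the 6 libraries compared were fitted. The share of all genes was not taken in that fit, so the 9 cannot be set against 2.65%. In CPM, 14 of 34 members had every control-FMT library below every busulfan library, against 6.58% of all genes. Unc45b was the member under that unadjusted threshold. The libraries gave Unc45b 246, 211 and 212 CPM in the AOS-FMT group, 194, 201 and 208 CPM in the control-FMT group, 252, 243 and 248 CPM in the busulfan group and 201, 233 and 159.7 CPM in the control group. The busulfan libraries lay above the control-FMT libraries, while AOS-FMT replicate 1 lay within the busulfan range, the log2 fold change, control-FMT over busulfan, being -0.30 ± 0.13 (edgeR adjusted p = 0.999). Myom3 and Obsl1 followed. Myom3 had 2.94, 3.94 and 3.00 CPM in AOS-FMT hearts, 2.59, 2.62 and 3.88 in control-FMT hearts, 4.09, 4.67 and 3.89 in busulfan hearts and 3.85, 4.63 and 4.52 in control hearts. Levels of Obsl1 were 126, 126 and 108 CPM in the AOS-FMT libraries, 122, 116 and 103 CPM in control-FMT, 140.3, 146 and 126 CPM in busulfan and 103, 136 and 87.2 CPM in control. Control-FMT libraries of both genes lay below the busulfan libraries, with log2 fold changes of -0.48 ± 0.23 and -0.27 ± 0.15. For Myom3, with 32 to 61 counts a library, the gap was only that between 3.883 and 3.89 CPM. The 3 smallest p-values among genes above 0 were those of Myom2 at 0.19 ± 0.24, Pdlim3 at 0.42 ± 0.56 and Nebl at 0.05 ± 0.16. Troponin I, Tnni3, had a log2 fold change of -0.30 ± 0.18 and Cryab of -0.21 ± 0.14. Leaving out the 4 libraries of highest atrial score, none of which belongs to these groups, gave a median of -0.14.

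Busulfan hearts were set against control hearts to ask what the drug did to these genes. Unc45b, Mybpc3 and Obsl1 stood higher and Pdlim3 lower in busulfan hearts at an unadjusted p under 0.05, which 11.3% of all genes reached. The members' share, 3 higher and 1 lower of 34, is close to that of all genes. None was called: edgeR's quasi-likelihood test gave 0 of 34 at an adjusted p under 0.05 and 8 of all genes (0.0593%), and DESeq2 and limma-voom called 0 members. The median was 0.13 with 8 members below 0. Every busulfan library lay above every control library in 3 members, Unc45b, Mybpc3 and Mypn, against 7.74% of all genes, which is close to the members' share. In 1 member, Pdlim3, every busulfan library lay below every control library, as in 861 of all 13489 genes. The log2 fold change, busulfan over control, was 0.32 ± 0.13 for Unc45b, 0.40 ± 0.16 for Mybpc3 and 0.34 ± 0.15 for Obsl1, each with an edgeR adjusted p of at least 0.386. Pdlim3 stood at -1.43 ± 0.55 (edgeR adjusted p = 0.393), Nebl at -0.17 ± 0.16 and Myoz2 at -0.16 ± 0.18. Pdlim3 was at -0.41 ± 0.52 with the log2 atrial score, -0.35 ± 0.25 with the linear level and -0.45 ± 0.40 without the 4 most atrial libraries. In those settings Mybpc3 was at 0.28 ± 0.19, 0.18 ± 0.12 and 0.14 ± 0.12. In AOS-FMT hearts Myoz2 was at 1056, 1032 and 904 CPM, beside 1069, 931 and 1024 CPM in control-FMT hearts, 1065, 1050 and 1004 CPM in busulfan hearts and 1586, 925 and 984 CPM in control hearts. Control replicate 1 was the highest library of Myoz2. The members' median was 0.23 without control replicate 1 and 0.01 without control replicate 3. Without the 4 libraries of highest atrial score it was 0, again with control replicate 1 as the only control library.

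Both FMT groups were also set against control hearts. For control-FMT over control the median was -0.01 with 18 members below 0, though in the authors' TPM it was 0.17, when that of all genes was 0.14. Here edgeR called 0 members and 0 genes in all (0%), DESeq2 and limma-voom called 0 members, and 1 member had an unadjusted p under 0.05, against 8.2% of all genes. The median was 0.07 without control replicate 1 and -0.13 without control replicate 3. The member under the unadjusted threshold was Myom3, at -0.52 ± 0.23 on the log2 scale. Pdlim3 followed at -1.01 ± 0.54 and Cmya5 at -0.26 ± 0.16, while Mybpc3, Mypn and Xirp1 led the genes above 0 at 0.22 ± 0.16, 0.16 ± 0.18 and 0.16 ± 0.18. The libraries gave Mypn 177, 99.1 and 138 CPM in the AOS-FMT group, 154, 157 and 144 CPM in the control-FMT group, 175, 164 and 169 CPM in the busulfan group and 140.3, 155 and 112 CPM in the control group. Xirp1 had 435, 309 and 387 CPM in AOS-FMT hearts, 499.6, 467 and 377 in control-FMT hearts, 454, 381 and 494 in busulfan hearts and 418, 464 and 320.0 in control hearts. Levels of Cmya5 were 778, 624 and 705 CPM in the AOS-FMT libraries, 712, 736 and 669 CPM in control-FMT, 734, 781 and 812 CPM in busulfan and 744, 1094 and 695 CPM in control. Control replicate 2 was the highest library of Cmya5, and the control range of each of these genes overlapped the control-FMT range. Without the 4 libraries of highest atrial score, which leaves only control replicate 1, with its spread assumed to be that of the other groups, edgeR called 131 genes, among them 1 member, Myoz2 (log2 fold change -0.66, edgeR adjusted p = 0.0392). That library is the highest of the 12 for Myoz2, at 1586 CPM, and the control libraries left out stand at 925 and 984 CPM. For AOS-FMT over control the median was -0.14 with 27 below 0, though it was 0.06 in the authors' TPM, when that of all genes was 0.16. Here edgeR called 0 members and 11 genes in all (0.0815%), DESeq2 and limma-voom called 0 members, and 1 member had an unadjusted p under 0.05, against 8.87% of all genes. The median was -0.09 without AOS-FMT replicate 2, -0.08 without control replicate 1 and -0.24 without control replicate 3. The member under the unadjusted threshold was Cryab, at -0.39 ± 0.14 (edgeR adjusted p = 0.455), with every AOS-FMT library below every control library. Tnnt2 and Tnnc1 followed at -0.42 ± 0.19 and -0.38 ± 0.20, and Unc45b, Obsl1 and Tcap led the genes above 0 at 0.17 ± 0.13, 0.14 ± 0.15 and 0.15 ± 0.20.

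A few members were highest, and Tpm1 lowest, in the most atrial library of every group. Within each group the library with the highest atrial score also had the highest level of Tmod1, Myom2, Synpo2l and Pdlim3, which is 4 of 34 members against 4.37% of all genes tested. Tpm1 alone was lowest in that library in all 4 groups, 1 of 34 against 2.93% of all genes, which is close to the members' share. In AOS-FMT hearts Myom2 was at 553, 1108 and 763 CPM, beside 753, 956 and 1042 CPM in control-FMT hearts, 695, 787 and 928 CPM in busulfan hearts and 719, 1073 and 780.5 CPM in control hearts. In each group the most atrial library was the highest for Myom2, and AOS-FMT replicate 1 was the lowest of the 12. The other libraries did not always follow the score: Myom2 was lower in control-FMT replicate 1 (score 3.48) than in replicate 2 (score 0.816). The libraries gave Tpm1 12100, 9356 and 10070 CPM in the AOS-FMT group, 12240, 12190 and 11500 CPM in the control-FMT group, 15450, 13590 and 12950 CPM in the busulfan group and 16520, 9827 and 11040 CPM in the control group. Control replicate 1, the least atrial control library, had the highest Tpm1 level. Tmod1 had 512, 516 and 506 CPM in AOS-FMT hearts, 502, 484 and 505 in control-FMT hearts, 530.5, 532 and 564 in busulfan hearts and 521, 631 and 498 in control hearts. The Tmod1 range was narrow in every group but control. Control replicate 3 (score 9.88) had less Tmod1 than control replicate 1 (score 6.04). With the log2 atrial score as a covariate, the log2 fold change of Pdlim3 in AOS-FMT against busulfan hearts was 0.38 ± 0.52 and that of Synpo2l -0.38 ± 0.25.

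**Figure D4:**
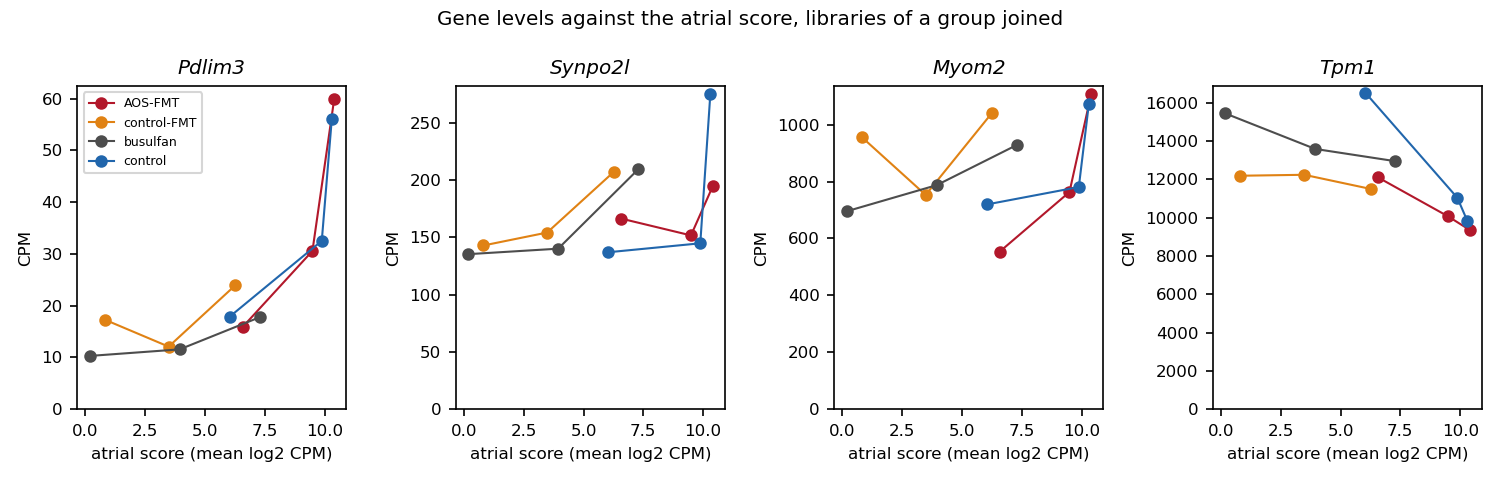
CPM of Pdlim3, Synpo2l, Myom2 and Tpm1 against the atrial score (averaged log2 CPM of Myl7, Myl4, Bmp10 and Sln), 1 point per library, coloured by group. Pdlim3 reaches its highest levels, 59.96 and 56.14 CPM, at scores of 10.4 and 10.3, and Tpm1 is lowest in the most atrial library of each group.

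Related gene lists were read in the same AOS-FMT against busulfan comparison, where edgeR called 0 genes of each list. Of 36 other sarcomere genes measured, 26 were below 0, with a median of -0.20, and 10 were lower at an unadjusted p under 0.05. Myh7, slow myosin heavy chain, had the smallest p-value, at -0.89, and among genes above 0 the smallest were those of Mybphl, a myosin-binding protein H-like gene of the atria, at 3.87 and Tpm2, beta-tropomyosin, at 0.87. Of 25 costamere and intercalated disc genes, 16 were below 0, with a median of -0.10; Sgca, alpha-sarcoglycan, stood at -0.37 and Plec, plectin, at -0.39, while Dsg2, desmoglein 2, stood at 0.47 and Synm, synemin, at 0.74. Of 16 muscle transcription factors, 10 were below 0, with a median of -0.02. Nkx2-5, a cardiac homeobox factor, stood at -0.29 and Mef2d, a MEF2 family factor, at -0.26, while Foxo1 stood at 0.22 and Tbx5, a T-box factor, at 1.20. The cardiomyocyte markers outside the sarcomere were below 0 in 19 of 20, with a median of -0.28, the same value as for the members.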

How the data were processed

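Estimated counts per gene, TPM and FPKM were deposited for 12 heart libraries, per the file headers, and the FPKM were not used. The submitters' processing notes name Bowtie 0.12.2 and mm10. How reads were counted, with which annotation and on which strand, is not given in the sources used here. Of the estimated counts the authors deposited, 94.7% to 95.3% per library were whole within 1e-09. They were rounded, filtered with filterByExpr to 13489 genes, scaled by TMM (factors 0.908 to 1.08) and tested with edgeR 4.0.16 (R 4.3.3), by its quasi-likelihood test in the robust form. The fit held all 12 libraries with group as the only term, 6 pairwise comparisons were tested, and p-values were adjusted over all genes by Benjamini-Hochberg at 0.05. Genes had a common biological coefficient of variation of 18.6%. In AOS-FMT against busulfan, members had a median standard error of 0.172 in log2 fold change. The deposited TPM gave levels between genes and, as log2(TPM + 1), a limma 3.58.1 alternative. DESeq2 1.42.0, limma-voom, other scalings, covariates and leaving out libraries were alternatives. The pipeline was tested on simulated data. The replicates of each group differed beyond sampling noise (chi-square per degree of freedom 8.88 to 71.5). Members, lists and the rule for named genes were chosen with earlier results of these data known: values in every library are given for a core of members and, per comparison, the 3 smallest p-values in each direction. A gene outside the members that this rule would name is not reported here. Upstream sequences are those of RefSeq on GRCm38.p6, and exon overlaps were read from GENCODE models of that build.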

Additional observations from a re-analysis of the deposited data

How the results depend on the processing

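Across 25 alternatives, 12 of which left out 1 library each, the number of members called stayed at 0 except for 2 called by DESeq2 in AOS-FMT against busulfan and 1 called in control-FMT against control without the 4 libraries of highest atrial score, where 131 genes were called in all in each case. DESeq2 called 123 genes in busulfan against control and 32, 122 and 92 in AOS-FMT against control-FMT, AOS-FMT against control and control-FMT against control, none of them a member. With that score's summed CPM as a linear covariate, the members' median log2 fold change was -0.11 in AOS-FMT against busulfan, 0 between the FMT groups, -0.05 in busulfan against control and -0.14 in control-FMT against control. Without the 4 most atrial libraries, a setting that leaves only replicate 1 of AOS-FMT and of control, these medians were -0.08, 0.03, 0 and -0.15. With no scaling beyond library size the median was -0.15 for AOS-FMT against busulfan. In the deposited TPM it was -0.15 for AOS-FMT against busulfan, 0.17 for control-FMT against control and 0.06 for AOS-FMT against control. The median of all genes moved as well, to 0.14 with no scaling in AOS-FMT against busulfan. In the TPM it was 0.09, 0.14 and 0.16 for the same comparisons in the same order. Leaving out 1 library at a time gave medians of 0.01 to 0.23 for busulfan against control and -0.13 to 0.07 for control-FMT against control. The cause of these shifts was not tested.

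Several genes changed sign. In AOS-FMT against busulfan, Myom2 was at -0.41 and -0.53 with the log2 and linear atrial covariates and -0.53 without the 4 libraries. Nebl was at -0.11 with the log2 atrial score, 0 with the linear one and -0.04 with a liver score as covariate, and at -0.02 to 0.19 on leaving out 1 library. Synpo2l was at -0.38 and -0.25 with the log2 and linear atrial covariates and at -0.03 to 0.31 on leaving out 1 library. Lmod2 was at 0.01 with no scaling, 0.09 with the linear covariate, 0.07 without the 4 libraries and -0.22 to 0.00 on leaving out 1. Tcap was at 0.06 with no scaling, 0.19 with the liver covariate, 0.04 in TPM and -0.23 to 0.03 on leaving out 1 library. With the linear covariate Myom1 was at 0.04 and Smyd1 at 0.07, and without the 4 libraries Ttn was at 0.10, Myom1 at 0.06, Xirp2 at 0.10 and Smyd1 at 0.01. In AOS-FMT against control-FMT, Pdlim3 was at -0.14, -0.29 and -0.16 and Myom3 at -0.12, -0.13 and -0.04 with the log2 covariate, the linear covariate and without the 4 libraries, and Myom3 at -0.03 to 0.34 on leaving out 1 library. In busulfan against control, Nebl was at 0 with the log2 covariate, 0.09 without the 4 libraries and -0.31 to 0.03 on leaving out 1, and Myoz2 at -0.31 to 0.11. In control-FMT against busulfan, Nebl was at -0.02 to 0.18 on leaving out 1. In control-FMT against control, Mybpc3 was at -0.04 without the 4 libraries, Mypn at -0.03 and -0.10 and Pdlim3 at 0.11 and 0.04 with the log2 and linear covariates, and Xirp1 at 0 with the linear one. In AOS-FMT against control, Tcap was at -0.24 without the 4 libraries and -0.03 to 0.31 on leaving out 1, and Tnnt2 was at 0.10 with the liver covariate.

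Whether the replicate numbers pair the libraries was not settled by these values. Correlations of same-numbered libraries' deviations ran from -0.18 to 0.43, and 9 of 18 were over 0.1. For replicate 1 they ran from 0.1 to 0.43. A replicate block called 0 members in every comparison, with a median of -0.29 for AOS-FMT against busulfan. Every member but Myom3 had at least 118 counts in each library, while Myom3 rested on 32 to 61. With 3 libraries a group and a median standard error of 0.172, edgeR called no member after adjustment over all genes. Whether differences of the size seen in most members could be called was not tested.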
